A study of Mus musculus with 7 samples.

Results

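The stromal module of the duodenal mucosa was followed here through 39 named genes: 22 fibroblast and matrix genes, 5 endothelial genes and 12 smooth muscle genes. The genes were chosen by name, with earlier results of these data known, and all 39 were listed among the 22987 genes of the deposited table. RNA was sequenced from tissue scraped off the luminal face of the duodenum of C57BL/6 mice aged 6 weeks. There were 4 libraries from Nlrc4-T337S mice and 3 from wild-type (WT) mice. The T337S change lies in Nlrc4, a protein that assembles an inflammasome, and the series title gives it on both alleles. The labels name no other allele, transgene or treatment, and no litter, cage or collection day. Since no label states that the libraries are of separate mice, the p-values cover the spread among libraries, which may be partly technical. The comparison asks how the RNA of the scraped duodenum differs between the genotypes.

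The connective tissue under the gut epithelium is the lamina propria, with the muscularis mucosae below it. Fibroblasts lay down fibrillar collagens and proteoglycans there, endothelial cells line the capillaries and lacteals, and smooth muscle runs as a thin sheet and as strands into the villi. The contractile proteins of smooth muscle are encoded by genes that serum response factor (SRF) and its partner myocardin switch on through a DNA element called the CArG box. Epithelial cells make little fibrillar collagen, but they contain actin, myosin light chain kinase and tropomyosins of their own. In bulk RNA of this kind, fewer cells of a type and less RNA per cell cannot be told apart.

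RefSeq promoter windows on GRCm38.p6, 250 bases before to 50 bases after the transcription start, were matched for 25 of the 39 members. The CArG box was searched on both strands as its exact consensus, CC, then 6 bases that are each A or T, then GG, and stretches that miss it by a single base were not counted. It was found in 1 of 9 smooth muscle members with a window, in 0 of 16 other members, and in 1.63% of all 32851 windows of that length. A match is a description of the letters in the window, and the lack of an exact match says nothing about binding there or elsewhere. The 3 smooth muscle windows below are of members that moved together (Myl9 and Acta2) or stood higher (Tpm2). The first is Myl9, chr2:156775214-156775513, plus strand, with the CArG box in capitals; it begins 161 bases before the start. Acta2 (chr19:34255324-34255623, minus strand) and Tpm2 (chr4:43523505-43523804, minus strand) held no exact match. The Acta2 window does hold stretches that miss the consensus by a single base, such as ccctatatgg.
Myl9: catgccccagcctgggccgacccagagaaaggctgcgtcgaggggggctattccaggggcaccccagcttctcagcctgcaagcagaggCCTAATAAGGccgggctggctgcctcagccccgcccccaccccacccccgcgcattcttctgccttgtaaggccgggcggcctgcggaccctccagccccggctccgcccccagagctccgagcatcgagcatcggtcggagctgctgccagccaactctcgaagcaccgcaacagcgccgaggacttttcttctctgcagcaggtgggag
Acta2: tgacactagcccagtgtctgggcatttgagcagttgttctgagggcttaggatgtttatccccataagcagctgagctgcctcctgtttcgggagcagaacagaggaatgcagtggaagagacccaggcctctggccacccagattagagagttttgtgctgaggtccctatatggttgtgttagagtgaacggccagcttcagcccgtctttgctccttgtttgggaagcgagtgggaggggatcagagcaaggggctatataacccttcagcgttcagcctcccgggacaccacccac
Tpm2: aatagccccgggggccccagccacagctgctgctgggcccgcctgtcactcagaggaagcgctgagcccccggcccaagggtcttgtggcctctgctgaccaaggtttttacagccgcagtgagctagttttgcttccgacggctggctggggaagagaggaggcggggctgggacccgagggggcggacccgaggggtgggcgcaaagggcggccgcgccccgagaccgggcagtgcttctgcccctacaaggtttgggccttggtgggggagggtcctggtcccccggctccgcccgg

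Col4a1 and Col4a2, the chains of basement membrane collagen IV, lie on opposite strands with start sites 21 bases apart, so that their first exons overlap before the genes part. Their windows therefore share 78 bases, chr8:11312777-11312854, shown in capitals in the Col4a2 window (chr8:11312555-11312854, plus strand). Both genes were low in the same libraries, but so were most members, and a role of the shared bases was not tested.
Col4a2: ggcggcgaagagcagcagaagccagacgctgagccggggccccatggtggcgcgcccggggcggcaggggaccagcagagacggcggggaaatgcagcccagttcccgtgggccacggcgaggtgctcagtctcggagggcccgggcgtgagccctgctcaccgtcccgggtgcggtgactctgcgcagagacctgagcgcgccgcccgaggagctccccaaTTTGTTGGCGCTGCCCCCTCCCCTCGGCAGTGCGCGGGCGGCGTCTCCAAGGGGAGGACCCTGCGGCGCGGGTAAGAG

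Most of the module was lower in Nlrc4-T337S, in all 3 cell classes, and both members whose mean was not lower were smooth muscle genes. Decorin, SPARC, Sparcl1, Igfbp3, Serping1 and Mmp10 were called lower by limma among the matrix genes. So were Fabp4 among the endothelial genes, and Acta2, Myl9 and Tagln among the smooth muscle genes. Members too low to be tested could not be called. Mylk stood at the same level in both genotypes within its error, and Tpm2 stood higher in every Nlrc4-T337S library. The mean was lower in Nlrc4-T337S for 37 of 39 members. Over the 38 members whose level exceeded 3 reads' worth in at least 1 group, the median level in Nlrc4-T337S was 19.9% of the WT mean, with a range of 8.69% to 171%. The corresponding median was 89.5% over the 10987 genes tested and 84% over the 20996 genes with any value above 0.

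The test was limma on log2(RPKM + 0.5), with Benjamini-Hochberg adjustment over the 10987 genes whose mean was at least 0.5 RPKM. RPKM is a read count scaled to gene length and to mapped depth. Of 39 members, 19 passed the filter on low values, 10 were called lower at an adjusted p of 0.05 and 0 were called higher; 1 (Tpm2) was higher with an unadjusted p under 0.05. Over all tested genes 0.592% were called lower and 0.3% higher. Some members, Dcn and Acta2 among them, passed the filter only through their WT level, so their share called is no measure of the module. Over all members with no filter, 32 of 39 had an unadjusted limma p under 0.05 and were lower, against 17.7% of the 20996 genes. After adjustment, 0 of the 39 were called without the filter, where 0.105% of genes were called lower. All 4 Nlrc4-T337S libraries lay below all 3 WT libraries for 25 of 39 members, against 14.9% of genes. They lay above all WT libraries for 1 member, against 1.45% of genes.

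Single libraries decided the number of calls. It was 0 without Nlrc4-T337S replicate 1, Nlrc4-T337S replicate 4, WT replicate 1 or WT replicate 2, and 1 without Nlrc4-T337S replicate 3. It was 16 without Nlrc4-T337S replicate 2 and 12 without WT replicate 3. In these fits 14 to 17 members were lower with an unadjusted limma p under 0.05. The libraries themselves were ordered alike across the module: Nlrc4-T337S replicate 2 was the highest of its group for 35 of 39 members, and WT replicate 3 was the lowest of its group for 36. Among all tested genes these shares were 44.1% and 42.2%. Nlrc4-T337S replicate 1 or 3 was the lowest of all 7 libraries for 36 members, against 70.7% of all tested genes.

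**Figure D1:**
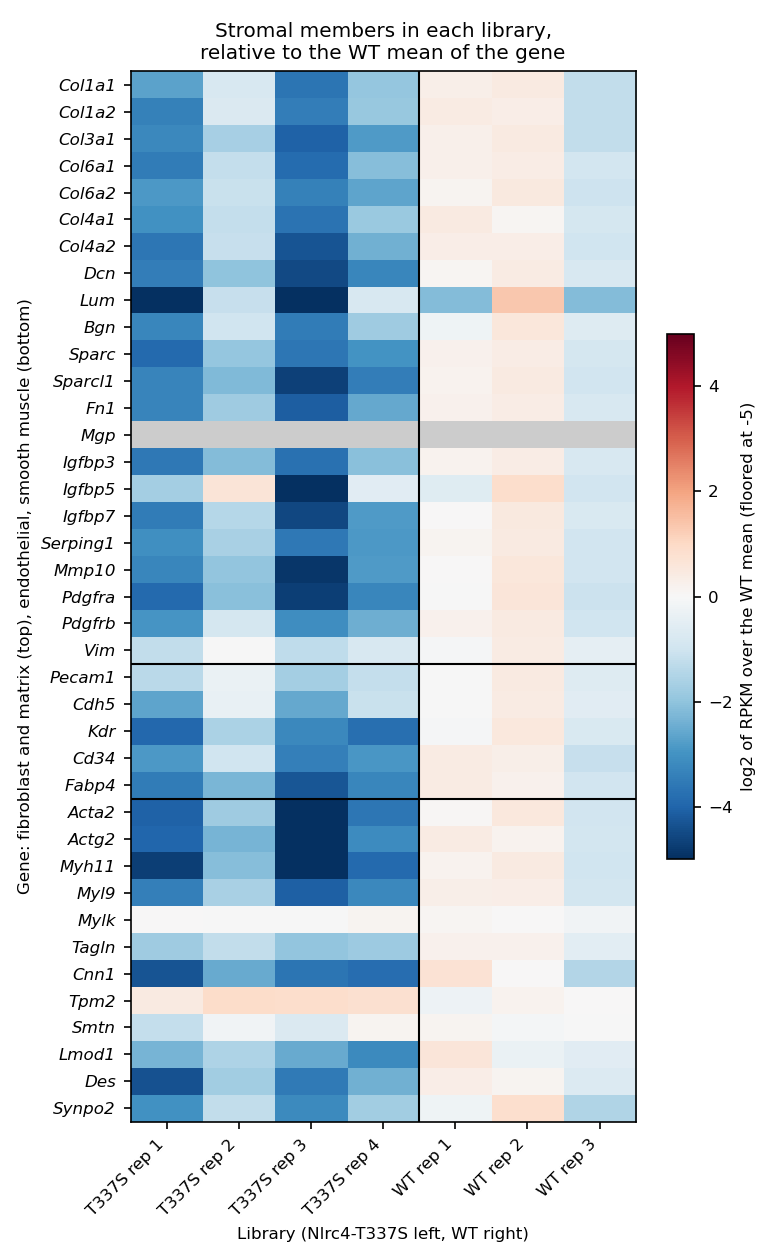
Level of each member in each library as log2 of RPKM over the mean of WT for that gene; columns are libraries with Nlrc4-T337S on the left, rows are genes grouped by class, and Mgp (grey) was at or under 3 reads' worth. Nlrc4-T337S replicate 1 or 3 is the lowest library in 36 rows, against 70.7% of all tested genes, and Mylk and Tpm2 are not lower in Nlrc4-T337S.

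Quality-passing reads numbered 45032119 to 95732587 per library and 84.2% to 97.1% of them mapped. A single read in 1 kilobase of gene gave 0.0124 to 0.0251 RPKM, the most in Nlrc4-T337S replicate 2. Over the genes tested, the log2 difference had a median of -0.15; median-of-ratios scaling brought it to 0.01. The library titles carry numbers of unstated meaning, odd in Nlrc4-T337S replicates 1 and 2 and WT replicates 1 and 2, even in the others. Epithelial markers summed to 5623 to 7609 RPKM in Nlrc4-T337S and 6704 to 7136 RPKM in WT, so the labelled epithelium was marked in every library.

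Values by library are given below in the order of replicates 1 to 4 for Nlrc4-T337S and 1 to 3 for WT. Fibrillar collagens, the tensile fibres of connective tissue, were low in all libraries and lowest in Nlrc4-T337S. Col3a1 (chromosome 1, 45368383 to 45406551, mm9), the collagen of soft elastic tissue, had 0.321, 0.927, 0.182 and 0.413 RPKM in Nlrc4-T337S, against 3.56, 4.07 and 1.26 RPKM in WT. The groups did not overlap, with Nlrc4-T337S replicate 2 nearest to WT replicate 3. Its log2 difference was -1.79 (SE 0.35), which did not pass the threshold (limma adjusted p = 0.0602). Col1a1 and Col1a2 encode the chains of collagen I. Col1a1 had 0.0345, 0.127, 0.0175 and 0.0577 RPKM in Nlrc4-T337S, against 0.272, 0.302 and 0.0963 RPKM in WT. Col1a2 had 0.0560, 0.347, 0.0523 and 0.156 RPKM in Nlrc4-T337S, against 0.765, 0.725 and 0.250 RPKM in WT. For both chains Nlrc4-T337S replicate 2 lay above WT replicate 3, so the groups overlapped, and neither gene reached the filter. The genotypes overlapped in the proportion of the chains: the ratio of Col1a2 to Col1a1 in RPKM was 1.62 to 2.98 across Nlrc4-T337S libraries and 2.40 to 2.81 across WT libraries.

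The beaded-filament collagen VI and the network-forming collagen IV followed the same order of libraries. Col6a1 had 0.125, 0.614, 0.0980 and 0.324 RPKM in Nlrc4-T337S, against 1.69, 1.82 and 0.740 RPKM in WT, without overlap and without passing (log2 difference -1.27, SE 0.28, limma adjusted p = 0.0791). Its partner Col6a2 averaged 0.186 ± 0.147 RPKM in Nlrc4-T337S (SD, n = 4) and 0.871 ± 0.410 RPKM in WT (SD, n = 3), also without overlap and under the filter. Col4a1 had 0.0771, 0.281, 0.0490 and 0.175 RPKM in Nlrc4-T337S, against 0.876, 0.677 and 0.346 RPKM in WT. Col4a2 had 0.0295, 0.164, 0.0181 and 0.0683 RPKM in Nlrc4-T337S, against 0.453, 0.454 and 0.181 RPKM in WT. All Nlrc4-T337S libraries were below all WT libraries for both chains, whose windows share the stretch printed above, which holds both start sites. The ratio of Col4a1 to Col4a2 was 1.71 to 2.70 in Nlrc4-T337S and 1.49 to 1.93 in WT. Their annotated exons overlap by 22 bases on opposite strands, and the library kit does not mark strand.

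Of the small leucine-rich proteoglycans, which bind and space collagen fibrils, decorin was called lower. Dcn (chromosome 10, 96942245 to 96980777) had 0.229, 0.634, 0.111 and 0.263 RPKM in Nlrc4-T337S, against 2.75, 3.42 and 1.46 RPKM in WT. Every Nlrc4-T337S library was less than the lowest WT library, and the log2 difference was -1.89 (SE 0.27, limma adjusted p = 0.0207). Biglycan (Bgn) had 0.545, 2.65, 0.473 and 1.52 RPKM in Nlrc4-T337S, against 4.50, 7.90 and 3.42 RPKM in WT. It did not overlap either, and it did not pass (log2 difference -1.78, SE 0.42, limma adjusted p = 0.0964). Lumican (Lum) was at or near 0 throughout: 0, 0.0121, 0 and 0.0157 RPKM in Nlrc4-T337S, against 0.00607, 0.0696 and 0.00598 RPKM in WT, where 3 reads are worth up to 0.0364 RPKM.

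Among matricellular and adhesive glycoproteins, SPARC and its relative Sparcl1 (hevin) were called lower. Sparc (chromosome 11, 55208002 to 55233582), a collagen-binding glycoprotein, had 0.161, 0.619, 0.197 and 0.303 RPKM in Nlrc4-T337S, against 2.80, 3.09 and 1.28 RPKM in WT (log2 difference -1.78, SE 0.27, limma adjusted p = 0.0249). Sparcl1 (chromosome 5, 104508130 to 104543107) had 0.319, 0.686, 0.125 and 0.288 RPKM in Nlrc4-T337S, against 3.55, 4.37 and 1.63 RPKM in WT (log2 difference -2.06, SE 0.30, limma adjusted p = 0.0228). Neither gene overlapped between genotypes; 201 exon bases of Sparcl1 are shared with an opposite-strand lincRNA. At 11.1% of the WT mean Sparcl1 tied with Pdgfra for the lowest share among the matrix genes. Fibronectin (Fn1), which links cells to the matrix, averaged 0.126 ± 0.0826 RPKM in Nlrc4-T337S (SD, n = 4) and 0.810 ± 0.306 RPKM in WT (SD, n = 3), without overlap and under the filter. Mgp, matrix Gla protein, an inhibitor of calcification, was listed above 0 in 1 library of each genotype, both under 3 reads' worth, and no fold is given.

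The insulin-like growth factor binding proteins differed in level and in reach of the test. Igfbp3 (chromosome 11, 7106089 to 7113926) had 0.288, 0.763, 0.256 and 0.795 RPKM in Nlrc4-T337S, against 3.84, 4.47 and 1.98 RPKM in WT. It fell with a log2 difference of -1.92 (SE 0.29, limma adjusted p = 0.0234), and here Nlrc4-T337S replicates 2 and 4 were about level. Igfbp7 (chromosome 5, 77778265 to 77837070), also secreted by endothelium, had 0.759, 3.19, 0.365 and 1.21 RPKM in Nlrc4-T337S, against 8.64, 12.2 and 5.03 RPKM in WT. Its log2 difference of -2.41 (SE 0.46) was the largest of any tested member in size, but it did not pass (limma adjusted p = 0.0568). Its exons share 85 bases with Polr2b on the opposite strand. Igfbp5 had at most 0.0258 RPKM in Nlrc4-T337S and 0.0296 RPKM in WT, and the groups overlapped.

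Serping1 and Mmp10 fell as well. Serping1 (chromosome 2, 84605544 to 84615601), the C1 inhibitor that restrains complement and contact proteases, had 1.04, 2.76, 0.728 and 1.17 RPKM in Nlrc4-T337S, against 9.55, 11.8 and 4.44 RPKM in WT (log2 difference -2.24, SE 0.38, limma adjusted p = 0.0392). Mmp10 (chromosome 9, 7502352 to 7510238), the matrix metalloprotease stromelysin-2, had 0.632, 1.55, 0.210 and 0.874 RPKM in Nlrc4-T337S, against 6.28, 9.0 and 3.15 RPKM in WT (log2 difference -2.33, SE 0.39, limma adjusted p = 0.0390). Both were without overlap, with Nlrc4-T337S replicate 3 lowest and WT replicate 2 highest.

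The platelet-derived growth factor receptors mark fibroblasts (Pdgfra) and pericytes and other perivascular cells (Pdgfrb). Pdgfra had 0.0542, 0.187, 0.0309 and 0.0823 RPKM in Nlrc4-T337S, against 0.789, 1.22 and 0.379 RPKM in WT, without overlap. Pdgfrb had 0.0378, 0.158, 0.0336 and 0.0542 RPKM in Nlrc4-T337S, against 0.338, 0.395 and 0.147 RPKM in WT, where Nlrc4-T337S replicate 2 lay just above WT replicate 3. The ratio of Pdgfra to Pdgfrb within a library was 0.918 to 1.52 in Nlrc4-T337S and 2.34 to 3.09 in WT, which did not overlap; this pair was picked after its values were seen and was not tested. Neither receptor reached the filter. Vimentin (Vim), the intermediate filament of mesenchymal cells and also of leukocytes, had 3.49, 8.04, 3.37 and 4.60 RPKM in Nlrc4-T337S, against 7.72, 10.6 and 5.95 RPKM in WT. At 60.2% of the WT mean, and with overlap, it was among the matrix genes least reduced, and it did not pass (limma adjusted p = 0.195).

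**Figure D2:**
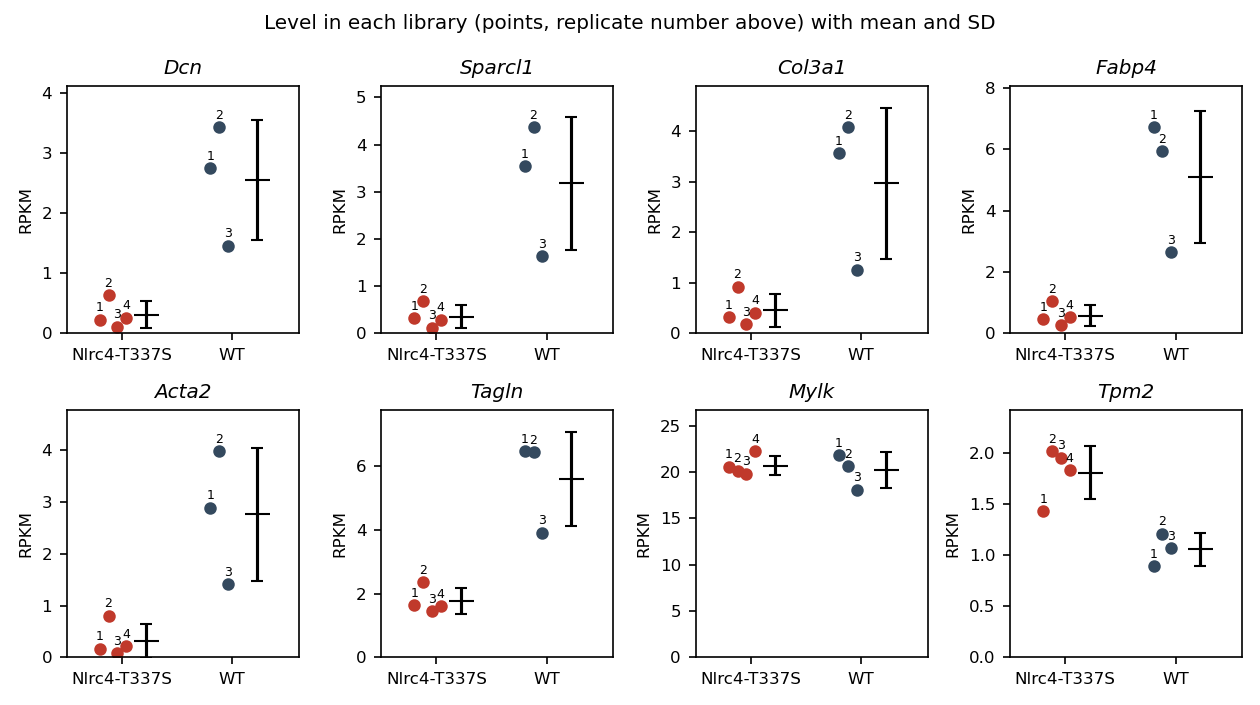
RPKM of 8 members in each library; points are libraries with their replicate number, and the bar beside them is the mean with its SD (n = 4 Nlrc4-T337S, n = 3 WT; the lower end for Acta2 is cut at 0). Dcn, Sparcl1, Col3a1, Fabp4, Acta2 and Tagln have all 4 Nlrc4-T337S libraries below the 3 WT libraries, Mylk is near 20.7 RPKM in Nlrc4-T337S and 20.2 RPKM in WT, and Tpm2 is higher in Nlrc4-T337S.

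In the endothelial class all 5 members had a lower mean in Nlrc4-T337S, 2 were tested, and Fabp4 was the member called lower. Fabp4 (chromosome 3, 10204347 to 10208576), a fatty acid binding protein of capillary endothelium and of adipocytes, had 0.456, 1.06, 0.264 and 0.534 RPKM in Nlrc4-T337S, against 6.72, 5.95 and 2.65 RPKM in WT. All 4 Nlrc4-T337S libraries were well below WT, with a log2 difference of -2.34 (SE 0.32, limma adjusted p = 0.0180). Of 7 adipocyte genes listed, Adipoq, Cfd and Lep were at or near 0 in all libraries, and 3 others were above 3 reads' worth. The list summed to 94.8 to 118 RPKM in Nlrc4-T337S and 98.5 to 120 RPKM in WT, nearly all from genes other than Adipoq, Cfd and Lep. The 3 genes above 3 reads' worth ranged from 35.8% to 98.0% of their WT means. The cell source of Fabp4 was not tested. Pecam1 (CD31), a junctional adhesion molecule that leukocytes and platelets also carry, had 0.662, 1.32, 0.522 and 0.739 RPKM in Nlrc4-T337S, against 1.67, 2.31 and 1.06 RPKM in WT. Its groups overlapped and it did not pass (log2 difference -0.73, SE 0.24, limma adjusted p = 0.155).

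Kdr, Cdh5 and Cd34 were all under the filter. Kdr, the main receptor for vascular endothelial growth factor, had 0.0188, 0.0970, 0.0310 and 0.0210 RPKM in Nlrc4-T337S, against 0.280, 0.419 and 0.169 RPKM in WT, without overlap. Cdh5, the cadherin of endothelial junctions, had 0.0183, 0.0884, 0.0196 and 0.0532 RPKM in Nlrc4-T337S, against 0.114, 0.152 and 0.0778 RPKM in WT. Cd34, a sialomucin of endothelium, stromal cells and blood progenitors, had 0.0502, 0.188, 0.0347 and 0.0498 RPKM in Nlrc4-T337S, against 0.498, 0.450 and 0.168 RPKM in WT. For Cdh5 and Cd34 Nlrc4-T337S replicate 2 exceeded WT replicate 3. Within libraries, the ratio of Kdr to Pecam1 was 0.0284 to 0.0734 in Nlrc4-T337S and 0.159 to 0.181 in WT, a pair also picked after its values were seen.

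Of 12 smooth muscle genes, 10 had a lower mean in Nlrc4-T337S. Among the 6 tested, Acta2, Myl9 and Tagln were called lower. Acta2 (chromosome 19, 34315580 to 34329826), the smooth muscle alpha-actin also made by myofibroblasts and pericytes, had 0.166, 0.807, 0.0813 and 0.223 RPKM in Nlrc4-T337S, against 2.88, 3.97 and 1.41 RPKM in WT. It fell with a log2 difference of -1.98 (SE 0.34, limma adjusted p = 0.0392), and the groups did not overlap. Actg2, the enteric gamma-actin, had 0.0556, 0.172, 0.0198 and 0.0992 RPKM in Nlrc4-T337S, against 1.15, 0.988 and 0.462 RPKM in WT, without overlap but under the filter. Its level in Nlrc4-T337S replicate 3 was under 3 reads' worth. Actins are near-identical in coding sequence, and how reads matching several of them were counted is not given in the sources used here. The ratio of Acta2 to Actg2 was 2.25 to 4.69 in Nlrc4-T337S and 2.51 to 4.02 in WT.

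Myosin and its regulators split. Myh11, the smooth muscle myosin heavy chain and a marker largely restricted to that lineage, had 0.0221, 0.133, 0.00589 and 0.0394 RPKM in Nlrc4-T337S, against 0.645, 0.792 and 0.293 RPKM in WT. At 8.69% of the WT mean it had the lowest share of the 38 members above 3 reads' worth. Its level in Nlrc4-T337S replicate 3 was barely above 3 reads' worth. Myl9 (chromosome 2, 156601156 to 156607394), the regulatory light chain whose promoter window held the CArG box, had 0.364, 1.25, 0.228 and 0.422 RPKM in Nlrc4-T337S, against 4.79, 4.87 and 2.05 RPKM in WT (log2 difference -2.05, SE 0.35, limma adjusted p = 0.0392). Mylk (chromosome 16, 34745296 to 35002520), the kinase that phosphorylates that light chain in muscle and at epithelial junctions, had 20.6, 20.2, 19.8 and 22.2 RPKM in Nlrc4-T337S, against 21.9, 20.7 and 18.1 RPKM in WT. The groups overlapped fully, and the log2 difference was 0.04 with a 95% interval of -0.18 to 0.26 (limma adjusted p = 0.84). With a higher RPKM than all other smooth muscle members together in each Nlrc4-T337S library, Mylk made up most of the summed class, which was 24.2 to 28.1 RPKM in Nlrc4-T337S, against 28.9 to 41.7 RPKM in WT.

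The actin-binding regulators also went in different directions. Tagln (SM22, chromosome 9, 45737711 to 45744141), which binds and stabilises actin filaments, had 1.63, 2.36, 1.44 and 1.61 RPKM in Nlrc4-T337S, against 6.46, 6.43 and 3.90 RPKM in WT (log2 difference -1.42, SE 0.20, limma adjusted p = 0.0199). The groups did not overlap; 65 of its exon bases are shared with Pcsk7 on the opposite strand. Cnn1, calponin, a marker of differentiated smooth muscle, had 0.0294, 0.101, 0.0458 and 0.0410 RPKM in Nlrc4-T337S, against 0.945, 0.581 and 0.212 RPKM in WT, without overlap and under the filter. Tpm2 (chromosome 4, 43527583 to 43536637), the beta-tropomyosin of muscle and some other cells, had 1.43, 2.02, 1.96 and 1.83 RPKM in Nlrc4-T337S, against 0.894, 1.21 and 1.07 RPKM in WT. It was the single member higher in every Nlrc4-T337S library, at a log2 difference of 0.57 (SE 0.13), without passing (limma adjusted p = 0.0934). It passed after median-of-ratios scaling (adjusted p = 0.0390), after quantile normalization (0.0158) and without Nlrc4-T337S replicate 2 (0.0464), all by limma, and was positive under every alternative run. Smoothelin (Smtn) had 0.379, 0.773, 0.535 and 0.965 RPKM in Nlrc4-T337S, against 0.948, 0.810 and 0.857 RPKM in WT, with overlap (limma adjusted p = 0.400; 714 exon bases shared with an opposite-strand lincRNA).

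Leiomodin (Lmod1), an actin nucleator, was under 3 reads' worth in all 4 Nlrc4-T337S libraries and at 0.0575, 0.0293 and 0.0252 RPKM in WT. Desmin (Des), the muscle intermediate filament, had 0.0382, 0.238, 0.0678 and 0.149 RPKM in Nlrc4-T337S, against 0.999, 0.867 and 0.490 RPKM in WT, without overlap. Synpo2, an actin-bundling protein of the Z line and dense bodies, had 0.0103, 0.0354, 0.00913 and 0.0252 RPKM in Nlrc4-T337S, against 0.0726, 0.148 and 0.0296 RPKM in WT, where Nlrc4-T337S replicate 2 lay above WT replicate 3.

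**Figure D3:**
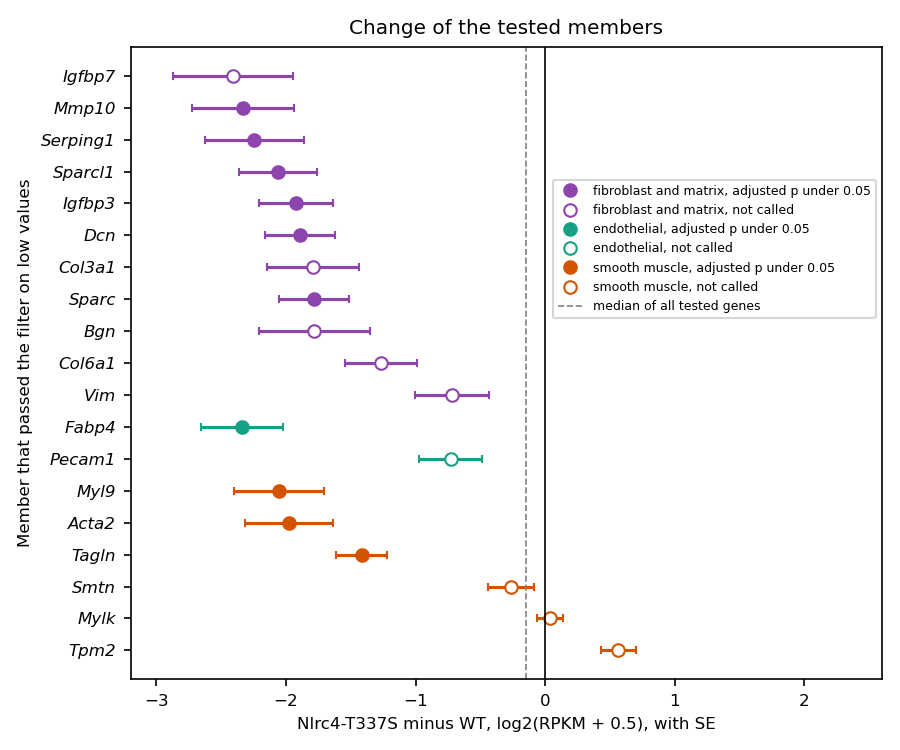
Log2 difference (Nlrc4-T337S minus WT, log2(RPKM + 0.5), horizontal axis) with its SE for the 19 members that passed the filter on low values, grouped by class; filled points passed an adjusted p of 0.05 by limma and the dashed line is the median of all tested genes, -0.15. Values run from -2.41 for Igfbp7 to 0.57 for Tpm2.

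The median level in Nlrc4-T337S was 19.3% of the WT mean over 21 fibroblast and matrix genes, 21.7% over 5 endothelial genes and 18.2% over 12 smooth muscle genes. In the same order, 11 of 22, 2 of 5 and 6 of 12 passed the filter and 6, 1 and 3 were called lower, against 0.592% of all tested genes; since some passed only through their WT level, these counts do not compare the classes. Those lower without overlap were 15, 2 and 8, against 14.9% of all genes with any value above 0. Summed fibroblast and matrix genes gave 6.45 to 24.4 RPKM in Nlrc4-T337S and 32.6 to 78.9 RPKM in WT. Summed endothelial genes gave 0.871 to 2.75 RPKM in Nlrc4-T337S and 4.13 to 9.28 RPKM in WT. By library, the median fibroblast and matrix level was 10.3%, 43.4%, 6.93% and 18.5% of the WT mean in Nlrc4-T337S, against 112%, 135% and 51.5% in WT. The median smooth muscle level was 10.8%, 33.2%, 9.79% and 15.2% in Nlrc4-T337S, against 114%, 114% and 57.9% in WT, so both classes put the libraries in nearly the same order.

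Whether 1 gene of each class (Col3a1, Cdh5 and Myh11) moved by different amounts was tested on their 3 ratios within a library. The test was a two-sided exact permutation test over the 35 assignments of libraries, whose smallest p is 0.0286. On the log2(RPKM + 0.5) scale, Cdh5 minus Col3a1 was -0.76 ± 0.37 in Nlrc4-T337S (SD, n = 4) and -2.38 ± 0.67 in WT (SD, n = 3), a difference of 1.62 (exact p = 0.0286, 0.0429 after Benjamini-Hochberg adjustment over the 3 ratios). Myh11 minus Cdh5 was 0.01 ± 0.07 in Nlrc4-T337S and 0.78 ± 0.28 in WT, a difference of -0.77 (exact p = 0.0286, adjusted 0.0429). Myh11 minus Col3a1 differed by 0.85 (exact p = 0.0857, adjusted 0.0857). Cdh5 and Myh11 lie so near 0 that the added 0.5 compresses their changes. A ratio with Cdh5 therefore mostly repeats the change of the other gene. Cdh5 stood at 39.1% of its WT mean, against a median of 21.7% for the endothelial members. The ratios thus describe these 3 genes and do not show that the classes moved differently. Without the added 0.5, an alternative chosen after seeing the data, the 3 differences were 1.15, -2.59 and -1.44 in the order given, the last with its sign reversed, and each had an adjusted exact p of 0.0857. The unadjusted exact p there was 0.0286 for Myh11 minus Cdh5, the smallest possible, 0.0857 for Cdh5 minus Col3a1 and 0.0571 for Myh11 minus Col3a1; a single ratio at the smallest p cannot pass after adjustment over 3.

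The same tissue classes were read in 112 other stromal genes, lists that were also drawn up with earlier results known. Of these, 24 passed the filter on low values, 0 were called lower or higher by limma (13 were lower with an unadjusted p under 0.05), and 59 were lower without overlap, against 14.9% of all genes. With no filter, 70 had an unadjusted p under 0.05 and were lower, against 17.7% of all genes, and 1 (Robo4, an endothelial guidance receptor) was called. Their median level was 30.3% of the WT mean. Other matrix and fibroblast genes stood at 20.9% (37 genes above 3 reads' worth), subepithelial fibroblast signals at 23.6% (10), other endothelial genes at 32.1% (26), pericyte genes at 27.0% (7) and other smooth muscle genes at 66.8% (23). Those with the smallest p, none of which passed, included Mmp2, gelatinase A, with 0.213 ± 0.162 RPKM in Nlrc4-T337S (SD, n = 4) and 1.04 ± 0.367 RPKM in WT (SD, n = 3; limma adjusted p = 0.0588). Tcf21, a fibroblast transcription factor, had 0.325 ± 0.277 RPKM in Nlrc4-T337S and 2.26 ± 1.18 RPKM in WT (limma adjusted p = 0.0602). Cav1, the coat protein of caveolae, had 0.171 ± 0.197 RPKM in Nlrc4-T337S and 1.05 ± 0.380 RPKM in WT (0.0635 by limma). Emcn, an endothelial sialomucin, had 0.213 ± 0.156 RPKM in Nlrc4-T337S and 1.17 ± 0.510 RPKM in WT (0.0692 by limma).

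In the smooth muscle list, the genes with the smallest p were further from the threshold, as was the 1 of 8 pericyte genes that was tested. That pericyte gene, Mcam (CD146), had 0.692 ± 0.198 RPKM in Nlrc4-T337S and 0.845 ± 0.207 RPKM in WT (limma adjusted p = 0.558). It was less reduced than the pericyte list as a whole, whose median was 27.0% of the WT mean. Caldesmon (Cald1) had 0.272 ± 0.108 RPKM in Nlrc4-T337S and 0.826 ± 0.338 RPKM in WT (0.106 by limma). Ppp1r14a, an inhibitor of myosin phosphatase, had 0.436 ± 0.210 RPKM in Nlrc4-T337S and 1.03 ± 0.165 RPKM in WT (0.108 by limma). Picked after their values were seen, Tpm1 resembled Mylk in standing at 71.6 ± 7.30 RPKM in Nlrc4-T337S and 71.6 ± 3.56 RPKM in WT. Fbln1 (fibulin-1), listed as matrix, stood at 22.4 ± 2.40 RPKM in Nlrc4-T337S and 24.7 ± 5.05 RPKM in WT.

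Markers of other cell types were read beside the module, where 14.9% of all genes were lower without overlap and 0.592% of tested genes were called lower. Over 10 epithelial markers the median by library was 101%, 99.0%, 83.9% and 101% of the WT mean in Nlrc4-T337S, against 102%, 98.2% and 101% in WT. Macrophage and dendritic cell markers gave 32.1%, 86.0%, 26.5% and 48.5% in Nlrc4-T337S, against 104%, 123% and 71.5% in WT, with 3 of 12 lower without overlap and summed levels of 30.8 to 121 RPKM in Nlrc4-T337S and 89.6 to 161 RPKM in WT. B and plasma cell markers gave 20.6%, 96.3%, 19.3% and 23.2% in Nlrc4-T337S, against 76.0%, 171% and 51.6% in WT, with summed levels of 56.1 to 266 RPKM and 253 to 661 RPKM in the same order of genotypes. Nlrc4-T337S replicate 2 was again the highest and replicate 3 the lowest of its group in both lists. Paneth cell genes, from crypt bases, gave 4.68%, 53.8%, 6.10% and 17.7% in Nlrc4-T337S, against 117%, 76.4% and 101% in WT; 9 of 10 were lower without overlap, and their sums were 90.1 to 438 RPKM in Nlrc4-T337S and 683 to 1028 RPKM in WT. Haemoglobin and other erythrocyte genes summed to 15.3 to 30.6 RPKM in Nlrc4-T337S and 50.6 to 81.3 RPKM in WT, with 3 of 7 called lower. T cell and intraepithelial lymphocyte genes gave medians of 97.8%, 125%, 96.2% and 126% in Nlrc4-T337S, against 95.3%, 109% and 96.6% in WT. Their sums were 375 to 486 RPKM in Nlrc4-T337S and 297 to 344 RPKM in WT. Of these 10 genes, 3 were higher without overlap, against 1.45% of all genes, and 7 overlapped. Called higher was 1, against 0.3% of tested genes. Pancreatic acinar genes gave medians of 8.01%, 0%, 11.4% and 0% in Nlrc4-T337S, against 173%, 35.5% and 102% in WT. In that list 8 of 11 were lower without overlap, and 2 of the 3 tested were called lower. Its sums were 14.3 to 18.6 RPKM in Nlrc4-T337S and 27.4 to 38.9 RPKM in WT. Markers of interstitial cells of Cajal summed to 0.555 to 0.903 RPKM in Nlrc4-T337S and 0.804 to 1.21 RPKM in WT. Of 5 mesothelial markers, Wt1 was at 0 in all libraries and 4 were above 3 reads' worth in at least 1 group. They summed to 0.0657 to 0.149 RPKM in Nlrc4-T337S and 0.0703 to 0.157 RPKM in WT. The part of crypt, blood or immune cell content in the module's values was not tested, and tissue content and genotype cannot be told apart here.

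**Figure D4:**
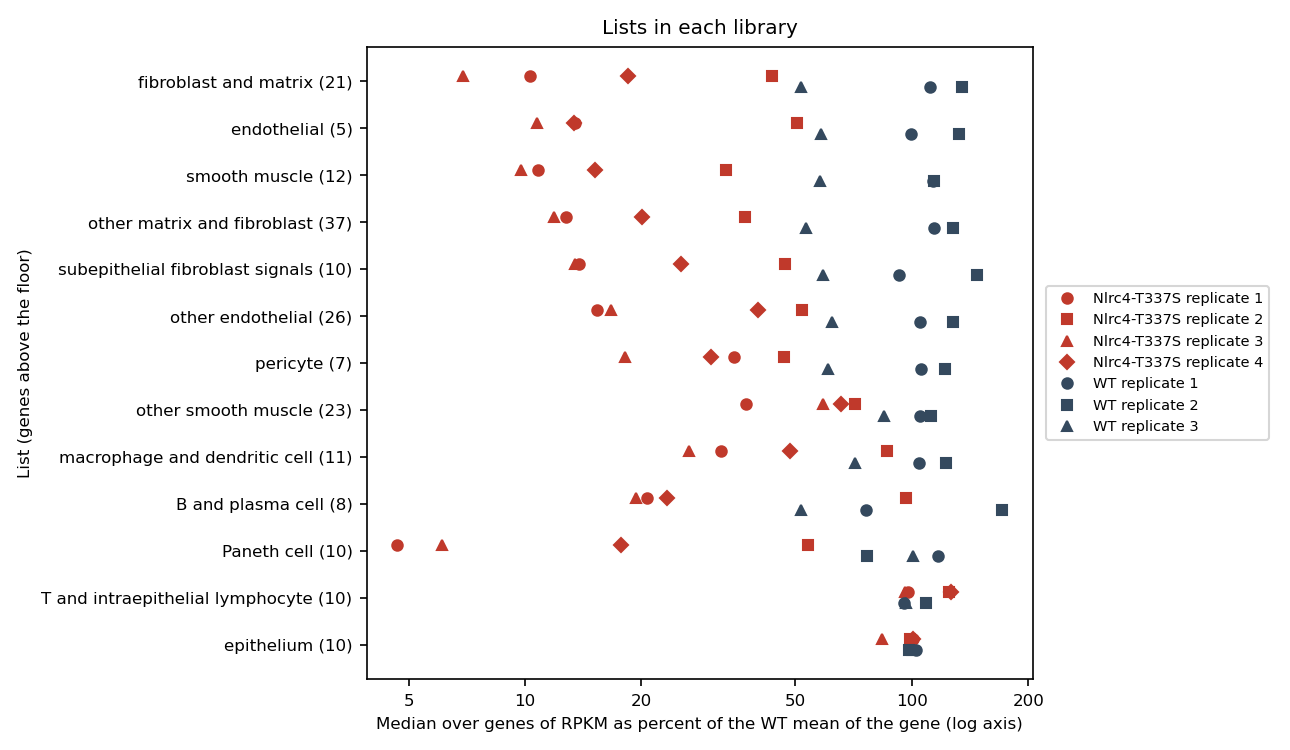
Median over the genes of each list of the RPKM in a library as percent of the WT mean of each gene (log axis); each point is a library, Nlrc4-T337S in red and WT in dark blue, with the number of genes above 3 reads' worth in brackets. In the 3 upper lists every Nlrc4-T337S library lies below every WT library. The same holds for every list of other stromal genes shown and for the Paneth cell list. In epithelium the libraries stand between 83.9% and 102%.

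Within libraries of odd title number, the difference on the log2(RPKM + 0.5) scale (2 Nlrc4-T337S libraries against 2 WT) was -1.99 for Col3a1, -2.17 for Sparcl1, -2.48 for Fabp4, -2.06 for Acta2 and 0.51 for Tpm2. Within those of even number (2 Nlrc4-T337S against 1 WT) it was -1.16, -1.60, -1.83, -1.56 and 0.61 in the same order of genes. Groups that do not overlap fix these signs beforehand, and the even set holds 1 WT library and gave no test. With title parity as a term in limma, 12 members were called lower.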

How the data were processed

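RNA was measured from duodenal scrapings, in 4 Nlrc4-T337S and 3 WT libraries; the Illumina TruSeq kit used on total RNA, per the labels' protocols, keeps no strand. Each library took its genotype from its label. Replicates were numbered in order of accession, so equal numbers do not pair libraries. Reads were mapped to mm9 with TopHat 2.1.0, and the authors computed RPKM in Partek 6.16.0606, per the file headers. TopHat2 2.1 is named in the submitters' processing notes. Not given in the sources used here: the gene models, and how reads with several matches were counted. The fraction of reads mapped was deposited by the authors with each library's quality-passing reads and is printed as a percent.

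Whole counts could not be recovered from the deposited RPKM, so no count model was used. The 10987 of 22987 genes averaging 0.5 RPKM or more were tested as log2(RPKM + 0.5) by the two-sided moderated test of limma 3.58.1 (R 4.3.3), mean-variance trend on and no covariate, followed by Benjamini-Hochberg adjustment at 0.05. Differences are Nlrc4-T337S minus WT and understate changes of low genes. The floor of 3 reads per gene was converted to RPKM with mapped reads and the exon length of an mm9 annotation (GENCODE vM1), which also gave gene positions and may differ from the authors' models. This floor covers counting error only. C1s, in a list, was not among the rows used here.

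The members, their classes and all lists were chosen with earlier results of these data known, and some lists were carried over from earlier work on them. Among members, all 39 are described, and test values are given for the 19 that passed the filter; from each other stromal list, up to 2 tested genes with the smallest p are named. Alternatives were pseudocounts of 0.1 and 1, no filter or a mean of at least 2 RPKM, median-of-ratios scaling, quantile normalization, a term for odd or even title number, and leaving out each library or both Nlrc4-T337S replicates 1 and 3. Added after seeing the data was the ratio with no pseudocount. The fit was tested on simulated data. Figures used matplotlib 3.10.9 in Python 3.11.15.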

Additional observations from a re-analysis of the deposited data

Results flagged for a closer look

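In 4 of the 39 members, Nlrc4-T337S replicate 2 stood far above the other 3 Nlrc4-T337S libraries, with a gap to the nearest that exceeded Dixon's critical share of the group's range. Pdgfrb was at 0.158 RPKM in that library, Kdr at 0.0970 RPKM, Cd34 at 0.188 RPKM and Mgp at 0.0420 RPKM, the last under 3 reads' worth. Chance flags about 1 in 20 groups, and members of 1 library are not independent of each other. Replicate 2 also had the fewest mapped reads.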

How the results depend on the processing

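No paired analysis was possible because the labels give no replicate number shared between genotypes. Alternatives were run for 26 genes, the 19 tested members and 7 other stromal genes, and their directions held under all that gave a value, except Mylk without WT replicate 3 and Mcam after quantile normalization (log2 difference 0.0689); Mylk ranged over -0.0377 to 0.0955 with 1 library left out. Members called lower numbered 10, and 8 with a pseudocount of 0.1, 11 with a pseudocount of 1, 11 after median-of-ratios scaling, 11 after quantile normalization and 12 with the title-number term. With no filter, which tests 20996 genes, 0 members, 0 fibroblast and matrix, 0 endothelial and 0 smooth muscle genes were called by limma, although 32 members had an unadjusted p under 0.05. With a mean of at least 2 RPKM, which tests fewer members, the counts were 4 members, 2 matrix genes and 1 smooth muscle gene. Without both Nlrc4-T337S replicates 1 and 3 the counts were 0 for all members and in each of the 3 classes, with 19 members at an unadjusted p under 0.05. Leaving out 1 library gave 0 to 16 members lower, 0 to 11 matrix, 0 to 2 endothelial and 0 to 3 smooth muscle genes, and 0 to 1 members higher. Tpm2 was the 1 member called higher after median-of-ratios scaling or quantile normalization. Other stromal genes called lower numbered 0, but 1 with no filter, 3 with the title-number term and 0 to 13 when 1 library was left out (13 without Nlrc4-T337S replicate 2, 5 without WT replicate 3). The Cdh5 to Col3a1 difference was 1.40 to 2.0 with 1 library left out and 1.15 with no pseudocount. Myh11 to Col3a1 was 0.73 to 1.07 with 1 library left out, 0.81 with a pseudocount of 1, where it passed (adjusted exact p = 0.0286), and -1.44 with no pseudocount. Myh11 to Cdh5 was -0.93 to -0.67 and -2.59 with no pseudocount. With 1 library left out, the exact test cannot go below 0.0667 or 0.1. The cause of these changes was not tested. Depth limits the lowest members: 1 read per kilobase was worth up to 0.0251 RPKM.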
